A study of Mus musculus with 6 samples.

Results

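The genes described here are 9 that govern where a T cell goes and what it holds on to: the transcription factor genes Klf2 and Klf3, the sphingosine-1-phosphate receptor genes S1pr1 and S1pr4, the selectin ligand gene Selplg, the integrin chain genes Itga4, Itgb7 and Itgal, and the hyaluronan receptor gene Cd44. They were taken as a list of names, chosen with earlier results of these data known. For each, the probe set that names only that gene was used. All 9 were measured, among 19938 genes in all, and each had 1 such probe set.

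RNA levels were read on Affymetrix arrays from BDC2.5 CD4 T cells, which carry a T cell receptor against a beta cell antigen and had been transferred into NOD mice, a strain prone to autoimmune diabetes. All mice were NOD females aged 7 weeks, and the T cells were recovered from the spleen as Thy1.1+CD4+ cells after magnetic depletion of other cells. The mice were given PBS, 100 ng of anti-DEC205-BDC or 100 ng of anti-DCIR2-BDC, antibodies that carry the BDC antigen to dendritic cells with the named receptor on their surface, and after 14 h the T cells were sorted. There were 3 groups of 2 arrays, said by the labels to be biological replicates and called arrays 1 and 2 here. The labels do not say how many mice gave an array, and no group received an antibody without antigen. Antigen and antibody effects therefore cannot be told apart in the comparisons against PBS.

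Naive T cells circulate by leaving the blood into lymphoid organs and leaving those organs again along a gradient of sphingosine-1-phosphate, a lipid that is high in blood and lymph. KLF2 is a zinc finger factor that keeps the gene of the main exit receptor, S1PR1, switched on in resting T cells, and T cell receptor signals are known to lower both. PSGL-1, the product of Selplg, binds selectins on vessel walls. Integrins are pairs of an alpha and a beta chain: Itga4 with Itgb7 forms a gut homing receptor, Itga4 with Itgb1 a receptor for inflamed vessels, and Itgal with Itgb2 forms LFA-1, which also holds the T cell to antigen-presenting cells. CD44 binds hyaluronan in the matrix and is a marker of T cells that have met antigen.

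KLF factors bind short CACCC boxes, so the promoters of 4 of the genes are shown with each match to CCACCC in capitals, on either strand (the reverse complement reads GGGTGG). The letters are from RefSeq (GRCm38.p6, the C57BL/6J genome and not NOD) and run 5′ to 3′ over the 250 bases before the start site that the promoter table uses for each gene. For Itgb7 that start lies 1470 bases inside the outer bounds of the gene given further on, and for Cd44 4 bases inside. Klf2, Itga4 and Itgb7 are shown because their levels were lower after both antibodies, and Cd44 because its level was not:
Klf2 promoter, chr8:72318812-72319061, plus strand: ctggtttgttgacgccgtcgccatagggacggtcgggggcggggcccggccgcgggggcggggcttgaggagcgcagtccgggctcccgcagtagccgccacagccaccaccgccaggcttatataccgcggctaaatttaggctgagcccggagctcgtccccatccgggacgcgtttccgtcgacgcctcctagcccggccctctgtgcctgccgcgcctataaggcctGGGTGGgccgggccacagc
Itga4 promoter, chr2:79255176-79255425, plus strand: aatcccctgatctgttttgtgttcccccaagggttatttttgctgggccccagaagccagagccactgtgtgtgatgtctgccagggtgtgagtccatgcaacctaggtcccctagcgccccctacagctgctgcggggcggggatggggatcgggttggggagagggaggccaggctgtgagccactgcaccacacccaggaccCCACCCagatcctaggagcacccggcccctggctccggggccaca
Itgb7 promoter, chr15:102231936-102232185, minus strand: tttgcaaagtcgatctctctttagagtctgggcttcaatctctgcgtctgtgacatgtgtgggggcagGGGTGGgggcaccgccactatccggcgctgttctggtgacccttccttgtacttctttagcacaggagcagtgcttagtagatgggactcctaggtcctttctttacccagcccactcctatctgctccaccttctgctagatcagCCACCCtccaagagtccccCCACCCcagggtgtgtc
Cd44 promoter, chr2:102901666-102901915, minus strand: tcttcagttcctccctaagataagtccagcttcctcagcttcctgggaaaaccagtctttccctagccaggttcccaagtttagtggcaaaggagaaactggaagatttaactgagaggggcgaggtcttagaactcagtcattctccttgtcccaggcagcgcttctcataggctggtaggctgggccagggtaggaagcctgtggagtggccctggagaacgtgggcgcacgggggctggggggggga

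The Klf2 window held 1 match, starting 19 bases before the start site, and the Itga4 window held 1 at 45 bases. The Itgb7 window held 3, at 182, 36 and 17 bases, and the Cd44 window held 0. A promoter entry was at hand for 6 of the 9 genes, and the windows of Klf3 (3 matches) and S1pr4 (1 match) also held the motif. Among these 6 only Cd44 was not lower after the antibodies, so no contrast between lowered and other genes can be drawn. The motif is rich in G and C, which made up 71.2% of the Klf2 window, 78.4% of Klf3, 64.0% of Itga4, 56.0% of Itgb7, 56.4% of Cd44 and 38.8% of S1pr4. Of all 32851 windows of the same length 28.1% held it. The forkhead core TGTTTAC, searched on both strands for factors such as FOXO1, was in 0 of the 6 windows and in 3.17% of all windows. A match describes letters and no binding was measured.

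The arrays were alike in scale, with medians of 5.43 to 5.56 on the log2 scale over 35556 probe sets. Across probe sets, arrays of 1 group correlated at r = 0.974 to 0.982. DEC205 array 2 was closer to the DCIR2 arrays (0.979 and 0.980) than to DEC205 array 1 (0.974). Of the T cell markers Cd3d, Cd3e, Cd3g, Cd247, Cd4, Thy1, Cd5 and Cd28, all 8 lay between percentiles 94.1 and 99.7 of all genes by their mean level. The dendritic cell markers lay between percentiles 3.93 and 55.6, and the B cell markers between 9.96 and 54.1. Mean log2 levels of the 8 dendritic cell markers per array ranged from 4.68 to 4.79 in PBS, from 4.74 to 4.81 after anti-DEC205-BDC and from 4.70 to 4.77 after anti-DCIR2-BDC. In limma, 1763 genes passed after anti-DEC205-BDC against PBS, 3568 after anti-DCIR2-BDC against PBS, and 4 between the antibodies, at an adjusted p of 0.05. Of these 1060 were higher and 703 lower after anti-DEC205-BDC (1186 and 498 with median centring), and 2008 higher and 1560 lower after anti-DCIR2-BDC (2394 and 1173). The count of 1763 was 1013 without PBS array 1, 1131 without DEC205 array 1 and 997 without DEC205 array 2, and that of 3568 was 2285 without DCIR2 array 1 and 2090 without DCIR2 array 2. The count of 4 was 27 without DEC205 array 2, 1 without DEC205 array 1, and 0 without either DCIR2 array.

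The first question was what anti-DEC205-BDC did to these genes. It lowered 7 of the 9: Klf2, Klf3, S1pr1, S1pr4, Selplg, Itga4 and Itgb7 fell, with log2 differences of -1.08 to -1.70, and 0 rose. Itgal and Cd44 did not pass. Over all genes 3.53% fell, 5.32% rose and 8.84% passed in either direction. The arrays of 7 genes were all lower and those of 1, Itgal, all higher than in PBS, against 26.5% and 22.2% of all genes (48.8% in either direction). The median difference of the 9 genes was -1.25, against -0.03 over all genes. At most 1.04% of all genes had a lower difference than any of the 7. The 9 genes were chosen with earlier results of these data known, so the shares over all genes give a scale and no test.

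After anti-DCIR2-BDC the same 7 genes fell, with log2 differences of -1.55 to -2.05, and 0 of the 9 rose. Over all genes 7.82% fell, 10.1% rose and 17.9% passed in either direction. The arrays of 7 genes were all lower and those of 2, Itgal and Cd44, all higher than in PBS, against 31.9% and 23.4% of all genes (55.3% in either direction). The median difference of the 9 genes was -1.90, against -0.05 over all genes. At most 0.938% of all genes had a lower difference than any of the 7. The way the genes were chosen limits these shares in the same way. The 2 comparisons share the PBS arrays, so their likeness is not independent evidence.

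In the deposited arrays the T cell markers moved too after anti-DCIR2-BDC. Cd3d, Cd3e, Cd3g, Cd4 and Cd28, 5 of the 8, fell, with a median of -0.78 over the 8, and their mean log2 level per array was 10.63 to 10.76 in PBS, 10.37 to 10.42 after anti-DEC205-BDC, and 9.99 to 10 after anti-DCIR2-BDC. After anti-DEC205-BDC 0 of the 8 passed in limma, and the median of the 8 was -0.35. An unadjusted limma p under 0.05 was found for 3 of the 8, and that share was not counted over all genes. Of the markers of 9 other cell kinds, Eomes and Gzma of the NK cell list and Ccr2 of the macrophage and monocyte list passed in limma: Eomes rose after both antibodies (1.64 and 1.06), and Gzma (-1.15) and Ccr2 (-0.93) fell after anti-DCIR2-BDC. The part of these markers in the results for the 9 genes was not tested. In sorted bulk RNA, fewer cells expressing a gene and less RNA per cell cannot be told apart.

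**Figure D1:**
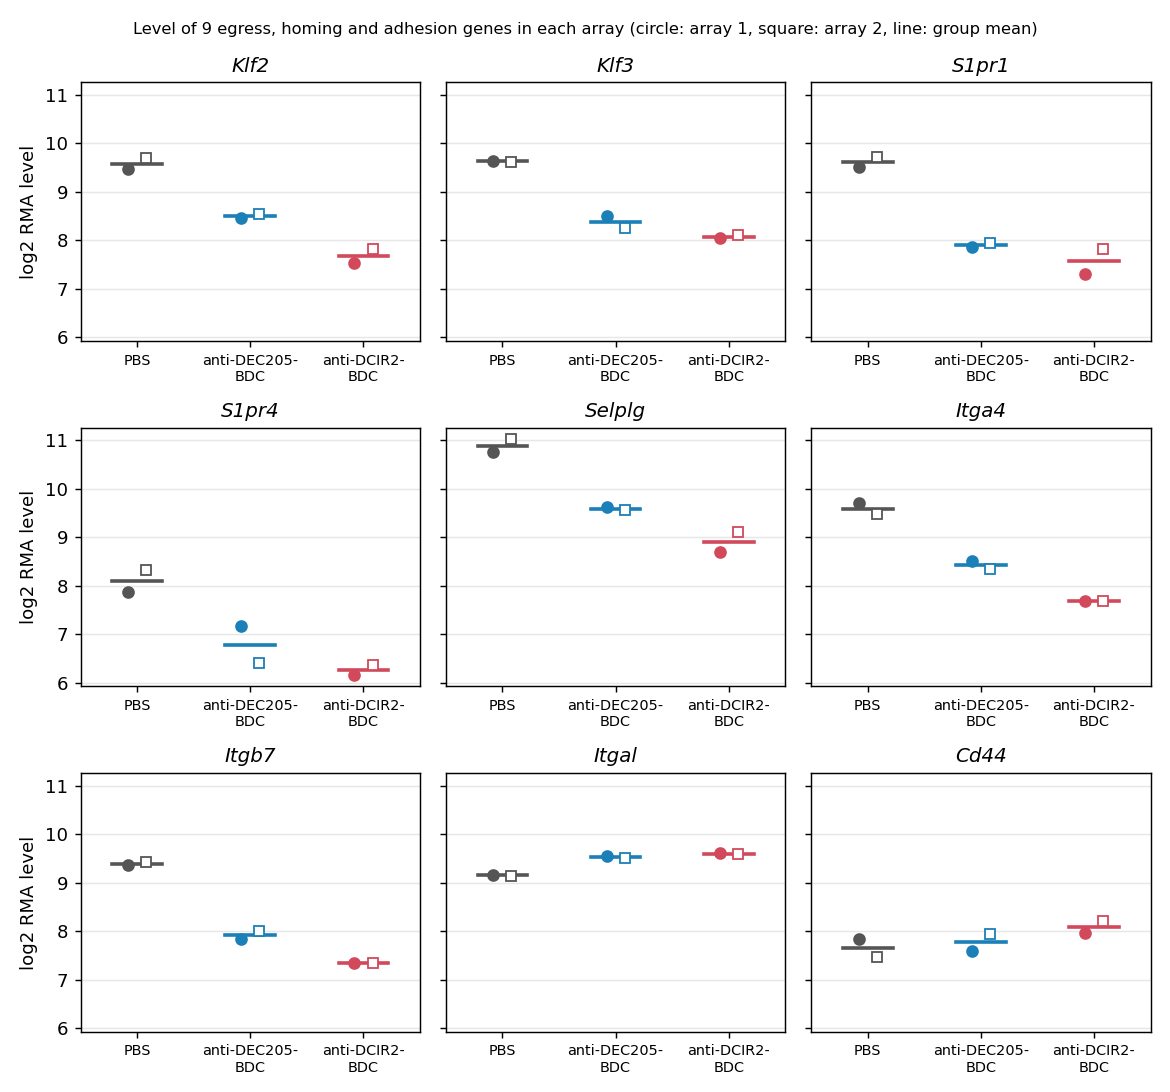
Log2 RMA level of each of the 9 genes (vertical axis) in each group, with a circle for array 1, a square for array 2 and a line for the group mean. For Klf2, Klf3, S1pr1, S1pr4, Selplg, Itga4 and Itgb7 both PBS arrays lie above both DEC205 arrays, and these above both DCIR2 arrays; heights are not comparable between genes, as each has its own probe set.

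Among the transcription factors, Klf2 (chr8:72319062-72321654) had log2 levels of 9.47 and 9.70 in the PBS arrays, 8.46 and 8.54 in the DEC205 arrays, and 7.53 and 7.83 in the DCIR2 arrays. The groups did not overlap, and the DCIR2 arrays were lowest. Klf2 fell by 1.08 after anti-DEC205-BDC (2.12-fold lower, SE 0.19, limma adjusted p = 0.00648) and by 1.90 after anti-DCIR2-BDC (3.74-fold lower, SE 0.19, limma adjusted p = 0.000117). With every probe set tested, the former did not pass (limma adjusted p = 0.0504, range 0.00194 to 0.0504 over the alternatives). Klf3 (chr5:64803521-64832901), a related zinc finger factor that mostly represses, was at 9.64 and 9.61 in PBS, 8.49 and 8.25 after anti-DEC205-BDC, and 8.05 and 8.11 after anti-DCIR2-BDC. Its replicate arrays were closest in PBS, and again no groups overlapped. Klf3 fell by 1.25 (SE 0.18, limma adjusted p = 0.00229) and by 1.55 (SE 0.18, limma adjusted p = 0.000219).

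Of the sphingosine-1-phosphate receptors, S1pr1 (chr3:115710433-115715055), the exit receptor of T cells, was at 9.50 and 9.71 in PBS, 7.86 and 7.95 after anti-DEC205-BDC, and 7.30 and 7.83 after anti-DCIR2-BDC. DCIR2 array 2 reached almost to the DEC205 arrays, and the PBS arrays stood well above all others. S1pr1 fell by 1.70 (3.25-fold lower, SE 0.21, limma adjusted p = 0.00144) after anti-DEC205-BDC and by 2.04 (4.12-fold lower, SE 0.21, limma adjusted p = 0.000143) after anti-DCIR2-BDC. S1pr4 (chr10:81497745-81500137), a receptor of the same family found mainly on blood and lymphoid cells, was at 7.86 and 8.32 in PBS, 7.17 and 6.40 after anti-DEC205-BDC, and 6.16 and 6.36 after anti-DCIR2-BDC. Its DEC205 arrays were the most widely spread pair among the 9 genes (SD 0.54, n = 2), with array 2 next to the DCIR2 arrays. S1pr4 fell after anti-DEC205-BDC (log2 difference -1.31, SE 0.27, limma adjusted p = 0.0137) and after anti-DCIR2-BDC (-1.83, SE 0.27, limma adjusted p = 0.000931). The former did not pass without PBS array 2 (log2 difference -1.08, limma adjusted p = 0.0774), when DEC205 array 2 was left out (-0.92, 0.085) or all probe sets were tested (0.103), range 0.00593 to 0.103 over the alternatives.

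Selplg (chr5:113817798-113832528), which encodes the core protein of PSGL-1, was at 10.75 and 11.02 in PBS, 9.63 and 9.55 after anti-DEC205-BDC, and 8.70 and 9.12 after anti-DCIR2-BDC. The DCIR2 arrays differed most from each other but stayed below the DEC205 arrays. Selplg fell by 1.29 (2.45-fold lower, SE 0.18, limma adjusted p = 0.00216) and by 1.97 (3.93-fold lower, SE 0.18, limma adjusted p = 7.6e-05).

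The integrin chains split. Itga4 (chr2:79255426-79333114), the alpha chain shared by the gut homing and the inflamed vessel receptors, was at 9.71 and 9.47 in PBS, 8.51 and 8.34 after anti-DEC205-BDC, and 7.68 in both DCIR2 arrays. It fell by 1.16 (2.24-fold lower, SE 0.18, limma adjusted p = 0.00367) and by 1.91 (3.75-fold lower, SE 0.18, limma adjusted p = 9.39e-05). Itgb7 (chr15:102215994-102233405), its beta partner in gut homing, was at 9.36 and 9.42 in PBS, 7.84 and 8.0 after anti-DEC205-BDC, and 7.34 and 7.35 after anti-DCIR2-BDC. Both chains thus stepped down from PBS to DEC205 to DCIR2 arrays without overlap. Itgb7 fell after both, with a log2 difference of -1.47 (2.78-fold lower, SE 0.18, limma adjusted p = 0.00124) and of -2.05 (4.13-fold lower, SE 0.18, limma adjusted p = 6.55e-05).

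Itgal (chr7:127296139-127335137), the alpha chain of LFA-1, was at 9.16 and 9.14 in PBS, 9.56 and 9.50 after anti-DEC205-BDC, and 9.61 and 9.59 after anti-DCIR2-BDC. Its replicate arrays were close together, and those of PBS lay below all others. The difference was 0.37 after anti-DEC205-BDC (1.30-fold, 95% interval 0.04 to 0.71, limma adjusted p = 0.185) and 0.44 after anti-DCIR2-BDC (1.36-fold, 95% interval 0.11 to 0.78, limma adjusted p = 0.0723), and neither passed. The latter passed with median centring (limma adjusted p = 0.0347) and with the dimmest 50% of genes removed (0.0358). Its adjusted p in limma lay between 0.0347 and 0.263 over the 16 alternatives.

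Cd44 (chr2:102811141-102901669), whose probe set does not tell its splice forms apart, was at 7.83 and 7.46 in PBS, 7.60 and 7.94 after anti-DEC205-BDC, and 7.96 and 8.20 after anti-DCIR2-BDC. The PBS and DEC205 arrays overlapped, and the DCIR2 arrays were highest. Its difference from PBS was 0.12 (95% interval -0.36 to 0.60, limma adjusted p = 0.832) after anti-DEC205-BDC and 0.43 (95% interval -0.05 to 0.92, limma adjusted p = 0.229) after anti-DCIR2-BDC. These intervals leave room for a true rise of up to 0.60 and 0.92.

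**Figure D2:**
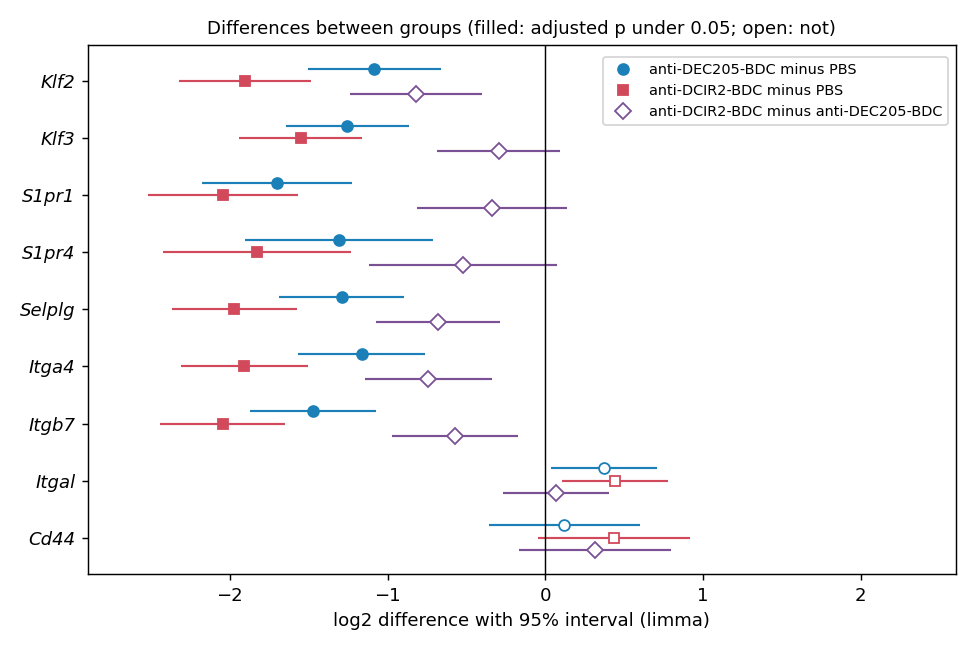
Log2 differences with 95% intervals (horizontal axis) for each of the 9 genes in the 3 comparisons, filled where the limma adjusted p was under 0.05 and open where it was not. The 7 genes at the top lie between -1.08 and -2.05 against PBS, while Itgal and Cd44 lie between 0.12 and 0.44, and the differences between the antibodies are all open.

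The next question was whether the 2 antibodies differed from each other. None of the 9 genes passed (0 higher and 0 lower in limma, against 0.0201% of all genes), and 4 were at an unadjusted limma p under 0.05. The share of all genes under that unadjusted threshold was not counted, so these 4 cannot be set against it. These 4 were lower after anti-DCIR2-BDC: Klf2 by a difference of -0.82 (95% interval -1.24 to -0.40, limma adjusted p = 0.206), Itga4 by -0.74 (-1.15 to -0.34, limma adjusted p = 0.225), Selplg by -0.68 (-1.08 to -0.29, limma adjusted p = 0.238) and Itgb7 by -0.57 (-0.97 to -0.18, limma adjusted p = 0.324). For S1pr1 the difference was -0.34 (-0.81 to 0.14), for Klf3 -0.30 (-0.69 to 0.09) and for S1pr4 -0.52 (-1.12 to 0.07). Itgal differed by 0.07 (-0.27 to 0.41) and Cd44 by 0.31 (-0.17 to 0.79).

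The arrays themselves were ordered. In 7 of the 9 genes every PBS array was above every DEC205 array and every DEC205 array above every DCIR2 array, an order found in 7.1% of all genes. Itgal held the opposite order, found in 8.01% of all genes, and Cd44 neither. As the genes were chosen with earlier results of these data known, these shares do not test the order. Between the antibodies alone, the arrays of 7 genes were lower and those of 2 higher after anti-DCIR2-BDC without overlap, against 20.9% and 19.3% of all genes (40.2% in either direction).

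Other genes of the same processes were taken from 6 lists with 98 entries, of which 95 were measured. The counts of each list are to be read beside the shares over all genes. These were 3.53% lower and 5.32% higher after anti-DEC205-BDC, and 7.82% lower and 10.1% higher after anti-DCIR2-BDC. The lists, too, were chosen with earlier results of these data known. The list of the sphingosine-1-phosphate and egress axis holds other receptors of the lipid, its enzymes and transporters, and regulators of exit. Of its 19 measured genes 0 rose and 3 fell after anti-DEC205-BDC, and 0 rose and 6 fell after anti-DCIR2-BDC, with medians of -0.15 and -0.16. Klf6, a further KLF factor, fell by 1.10 (limma adjusted p = 0.0102) and by 1.73 (limma adjusted p = 0.000332). Rgs1, which dampens G protein signals of chemoattractant receptors, fell by 1.46 (limma adjusted p = 0.0149) and by 1.32 (limma adjusted p = 0.0123). Foxo1, a factor upstream of Klf2, had a difference of -0.68 after anti-DEC205-BDC (limma adjusted p = 0.0701, passing in 5 of the 16 alternatives) and fell by 1.24 after anti-DCIR2-BDC (limma adjusted p = 0.00182). Klf13 was at -0.68 (limma adjusted p = 0.0910) and fell by 1.06 (limma adjusted p = 0.00631).

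Dnm2, a GTPase of receptor uptake that completes the 3 genes lower after anti-DEC205-BDC, was at -0.77 (limma adjusted p = 0.0310). That call was lost in 6 of the 16 alternatives, among them median centring (limma adjusted p = 0.0570) and testing every probe set (0.110). The other receptor genes S1pr2, S1pr3 and S1pr5 were among those that did not pass. Cd69, whose product binds S1PR1 and removes it from the surface, was at 9.66 and 9.33 in PBS, 9.83 and 9.69 after anti-DEC205-BDC, and 9.62 and 9.76 after anti-DCIR2-BDC. It did not pass, with differences of 0.26 (95% interval -0.11 to 0.63) and 0.19 (-0.18 to 0.56). Without PBS array 1 or DEC205 array 2, Klf6 and Rgs1 did not pass after anti-DEC205-BDC, nor with every probe set tested (limma adjusted p = 0.0574 to 0.0682 and 0.0835 to 0.116). Rgs1 did not pass after anti-DCIR2-BDC without PBS array 1 or DCIR2 array 2 (limma adjusted p = 0.0825 and 0.13), or with every probe set tested (0.0867). The count of 3 was 0 without PBS array 1, on leaving out DEC205 array 2 and on testing all probe sets, and it was 5 with quantile normalization and 6 when the dimmest 50% of genes were dropped.

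Of 13 homing receptor genes, which encode chemokine and related receptors, 0 rose and 0 fell after anti-DEC205-BDC in limma. An unadjusted limma p under 0.05 was found for 4, and that share was not counted over all genes. The count that fell after anti-DEC205-BDC was 1 with quantile normalization and 1 when the dimmest 50% of genes were dropped. It was at most 2 over the 16 alternatives. After anti-DCIR2-BDC 0 rose and 6 fell, and the medians were -0.35 and -0.61. Cxcr4, the receptor for CXCL12, was at 10.49 and 8.85 in PBS, 8.95 and 7.27 after anti-DEC205-BDC, and 7.78 and 6.56 after anti-DCIR2-BDC. In each group array 1 stood above array 2 by more than a log2 unit. The Cxcr4 difference after anti-DEC205-BDC was -1.56 (limma adjusted p = 0.167), and it was -2.40 without DEC205 array 1. With the replicate number added to the fit as a block, the difference of -1.56 passed (limma adjusted p = 0.00143). Cxcr4 fell by 2.50 after anti-DCIR2-BDC (SE 0.61, limma adjusted p = 0.0154), but not without PBS array 1 (limma adjusted p = 0.112), without DCIR2 array 2 (0.171) or with every probe set tested (0.121), range 6.88e-05 to 0.171 over the alternatives. Ccr7, the receptor for lymph node entry, fell by 0.72 after anti-DCIR2-BDC (limma adjusted p = 0.0136), Ccr2 by 0.93 (0.00846) and Cxcr6 by 0.84 (0.0114). After anti-DEC205-BDC these 3 were at -0.50, -0.35 and -0.0043. Ccr2, also on the macrophage and monocyte marker list, is dim, at 5.62 and 4.96 in PBS. Its anti-DCIR2-BDC call was lost in 4 of the 14 alternatives that kept this gene. The anti-DCIR2-BDC calls of Ccr7 and of Cxcr6 were each lost in 3 of the 16 alternatives. The count of 6 was 1 without DCIR2 array 2, and it was 2 without PBS array 1 and 2 without DCIR2 array 1.

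Of 16 other integrin chain genes 0 rose and 3 fell after anti-DEC205-BDC, and 0 rose and 4 fell after anti-DCIR2-BDC, with medians of -0.16 and -0.39. Itga6, an alpha chain of laminin receptors, fell after both (-1.31, limma adjusted p = 0.0136, and -1.93, limma adjusted p = 0.000674). Itgb3 fell by 1.19 (limma adjusted p = 0.0104) and by 1.32 (limma adjusted p = 0.00251). Itgb1, the second beta partner of Itga4, was at 9.18 and 8.62 in PBS, 8.18 and 8.03 after anti-DEC205-BDC, and 8.31 and 8.55 after anti-DCIR2-BDC. It fell by 0.80 after anti-DEC205-BDC at the edge of the threshold (limma adjusted p = 0.0497) and did not pass in 8 of the 16 alternatives, among them leaving out any array but PBS array 2 (limma adjusted p = 0.082 to 0.289) and median centring (0.0867). After anti-DCIR2-BDC it was at -0.47 (limma adjusted p = 0.196).

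Itgb2, the beta chain of LFA-1 and partner of Itgal, was at 9.58 and 9.90 in PBS, 9.65 and 9.64 after anti-DEC205-BDC, and 9.09 and 9.08 after anti-DCIR2-BDC. It was at -0.09 after anti-DEC205-BDC (limma adjusted p = 0.830) and fell by 0.65 after anti-DCIR2-BDC (limma adjusted p = 0.0192), while Itgal stood 0.44 above PBS. That fall did not pass without PBS array 2 (limma adjusted p = 0.141), without DCIR2 array 1 (0.086) or 2 (0.0925), with every probe set tested (0.0551) or with median centring (0.0514). The fourth chain that fell after anti-DCIR2-BDC was Itga1 (-0.51, limma adjusted p = 0.0285), a call lost in 7 of the 14 alternatives that kept this dim gene, with quantile normalization (0.0616) and median centring (0.0642) among them. After anti-DEC205-BDC the falls of Itga6 and Itgb3 did not pass on leaving out PBS array 2, leaving out DEC205 array 2 or testing all probe sets (limma adjusted p = 0.058 to 0.101). The count of 3 was 0 without DEC205 array 2 and 1 without PBS array 2, and the count of 4 was 2 without PBS array 2 or either DCIR2 array.

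The integrin activation list holds genes that promote or restrain the activation of integrins from inside the cell. Of 16 measured, 0 rose and 6 fell after anti-DEC205-BDC and 0 rose and 9 fell after anti-DCIR2-BDC, with medians of -0.50 and -0.62. Fyb, an adaptor that links the T cell receptor to integrin activation, fell by 1.0 (SE 0.17, limma adjusted p = 0.00548) and by 1.78 (limma adjusted p = 9.39e-05). Skap1, which binds it, fell by 1.13 (limma adjusted p = 0.0307) and by 1.88 (limma adjusted p = 0.000975). The former call was lost in 7 of the 16 alternatives, and the difference was -0.71 without PBS array 2. Dock2, an exchange factor for RAC in migrating lymphocytes, fell by 0.91 (limma adjusted p = 0.00802) and by 1.37 (limma adjusted p = 0.000332). Cytip, which restrains the LFA-1 regulator cytohesin-1, fell by 0.75 (limma adjusted p = 0.0241) and by 1.36 (limma adjusted p = 0.00041). Its anti-DEC205-BDC call was lost in 5 of the 16 alternatives. Tln1, the talin that bridges integrins to actin, was at -0.27 after anti-DEC205-BDC (limma adjusted p = 0.425) and fell by 0.59 after anti-DCIR2-BDC (limma adjusted p = 0.0348). The count of 6 was 2 without PBS array 2, 3 without either DEC205 array, and 4 without any of the other 3. The count of 9 was 5 without DCIR2 array 1, 6 without DCIR2 array 2 and 6 without PBS array 2.

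The selectin ligand synthesis list holds enzymes that add sugars or sulfate. Not all of them act on PSGL-1, as Chst15 works on chondroitin chains. Of 13 genes 2 rose and 0 fell after anti-DEC205-BDC, and 2 rose and 2 fell after anti-DCIR2-BDC, where 10.1% of all genes rose and 7.82% fell. The medians were -0.05 and -0.20. Tpst1, a tyrosine sulfotransferase, rose by 1.17 (limma adjusted p = 0.0289) and by 1.40 (limma adjusted p = 0.00595). Its values were 5.12 and 5.25 in PBS, 5.83 and 6.89 after anti-DEC205-BDC, and 6.54 and 6.63 after anti-DCIR2-BDC. Chst15, a sulfotransferase of chondroitin chains, rose after anti-DEC205-BDC (0.73, limma adjusted p = 0.029) and was at 0.41 after anti-DCIR2-BDC (limma adjusted p = 0.158). Chst2 was at 0.61 (limma adjusted p = 0.0964) and rose by 0.88 after anti-DCIR2-BDC (limma adjusted p = 0.0107). The galactosyltransferase gene B4galt1 (-0.73 and -1.19) and the sialyltransferase gene St3gal6 (-0.66 and -0.98) fell after anti-DCIR2-BDC (limma adjusted p = 0.00445 and 0.00413), while the difference between the antibodies did not pass for either. Fut7, the fucosyltransferase of selectin ligands, did not pass in either comparison. Without DEC205 array 2 neither rise passed after anti-DEC205-BDC, with Tpst1 at 0.64 (limma adjusted p = 0.117) and Chst15 at 0.64 (0.15). The count of 2 was 1 without DEC205 array 1 and 0 without any of the other 5, it was 4 when the dimmest 50% of genes were dropped, and the count of 4 after anti-DCIR2-BDC was 2 without either DCIR2 array.

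Of 18 other adhesion receptor genes 1 rose and 5 fell after anti-DEC205-BDC, and 2 rose and 8 fell after anti-DCIR2-BDC, with medians of -0.27 and -0.49. Pecam1, a receptor of leukocytes and endothelium, fell after both (-1.06, limma adjusted p = 0.0304, and -1.96, limma adjusted p = 0.000517). Its anti-DEC205-BDC call was lost in 7 of the 16 alternatives, and the difference was -0.67 without PBS array 2. L1cam, a homophilic adhesion molecule, fell by 1.28 (limma adjusted p = 0.00362) and by 1.71 (limma adjusted p = 0.000243). Emb, which encodes the integrin-modulating protein embigin, fell by 1.26 (limma adjusted p = 0.00784) and by 1.36 (limma adjusted p = 0.00209). Cd96, a receptor for nectin-like ligands, fell by 0.93 (limma adjusted p = 0.0140) and by 1.25 (limma adjusted p = 0.00127). The anti-DEC205-BDC calls of Emb and of Cd96 were each lost in 3 of the 16 alternatives. The gene that rose in both comparisons was Alcam, the ligand of CD6 (0.82, limma adjusted p = 0.0329, and 1.01, limma adjusted p = 0.00617). After anti-DEC205-BDC the Alcam call was lost without any 1 of the 4 arrays compared (limma adjusted p = 0.0517 to 0.165) and with every probe set tested (0.144), and after anti-DCIR2-BDC without DCIR2 array 1 (0.0647). Cd226, which shares ligands with Cd96, rose after anti-DCIR2-BDC (0.79, limma adjusted p = 0.01) and was at 0.32 after anti-DEC205-BDC. It did not pass without PBS array 1 or DCIR2 array 2 (limma adjusted p = 0.0588 and 0.0853). Cd47, which tells phagocytes to spare the cell, fell in both comparisons (-1.0 and -0.84), but in neither without PBS array 2 or with every probe set tested (limma adjusted p = 0.0712 to 0.0904). The count of 6 was 1 without DEC205 array 2 and 2 without PBS array 2, and the count of 10 was 6 without DCIR2 array 1.

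**Figure D3:**
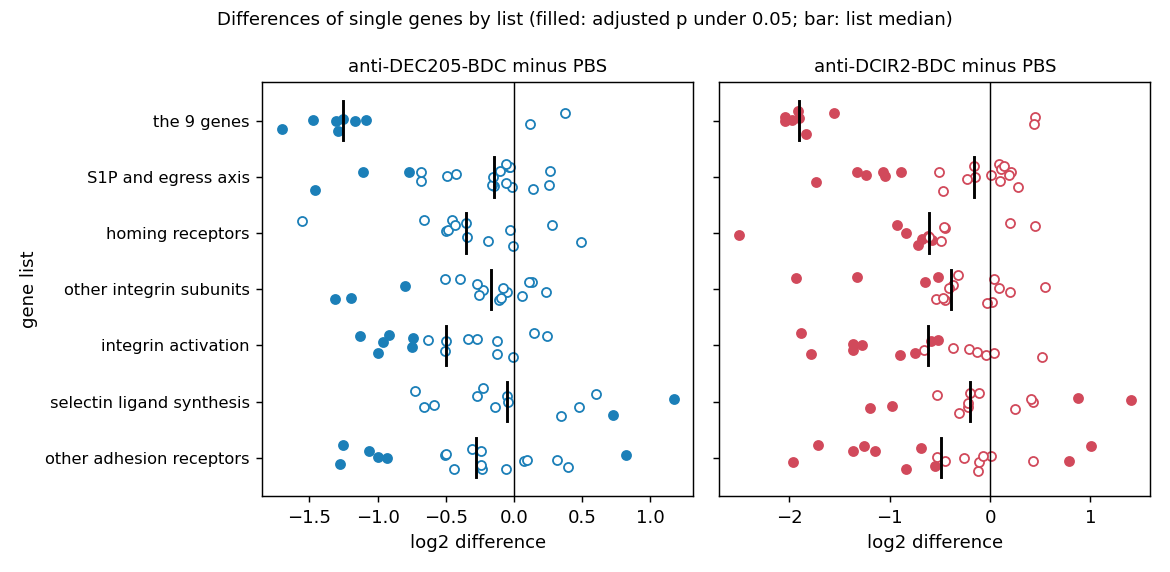
Log2 difference from PBS (horizontal axis) of each measured gene in the 6 lists and of the 9 genes, after anti-DEC205-BDC (left) and anti-DCIR2-BDC (right), with filled points for a limma adjusted p under 0.05 and a bar at each list's median. The medians of the 9 genes, -1.25 and -1.90, lie left of those of the lists, which run from -0.50 to -0.05 and from -0.62 to -0.16.

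The 24 genes named from the lists by rule were chosen among genes that passed in at least 1 comparison against PBS. That 14 passed after anti-DEC205-BDC and 23 after anti-DCIR2-BDC follows from this choice and does not describe the lists. Fyb and L1cam passed after anti-DEC205-BDC in all 16 alternatives, and the other 12 calls were lost in at least 1. Of the 10 that did not pass, 6 passed in at least 1 alternative: Foxo1, Klf13, Cxcr4, Ccr7, B4galt1 and St3gal6. After anti-DCIR2-BDC 12 calls held in all 16, those of Klf6, Foxo1, Itga6, Itgb3, Skap1, Fyb, Dock2, Cytip, Pecam1, L1cam, Emb and Cd96.

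Genes with the profile most like that of a member were sought over the 6 arrays, by the root mean square difference of log2 levels after each gene's mean was taken off, among 17211 genes. Nearest to Klf2 were Dgka, a diacylglycerol kinase (0.0781), Bnip3l, a mitophagy receptor (0.0844), and Herc3 (0.0846). Dgka was at 11.49 and 11.85 in PBS, 10.46 and 10.45 after anti-DEC205-BDC, and 9.51 and 9.76 after anti-DCIR2-BDC. Nearest to S1pr1 were Scml4 (0.0825), Zbp1, a sensor of nucleic acids (0.112), and Dnah8 (0.116). Scml4 was at 9.13 and 9.40, then 7.60 and 7.52, then 6.92 and 7.65 in the same order, with DCIR2 array 2 above array 1 as in S1pr1. Nearest to Cd44 were Pcbp4 (0.0569), Fiz1 (0.0612) and Ccdc141 (0.0724), which like Cd44 spanned less than a log2 unit over the arrays. With 3 groups of 2 arrays, many genes share such a step, so these are descriptions of shape only.

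**Figure D4:**
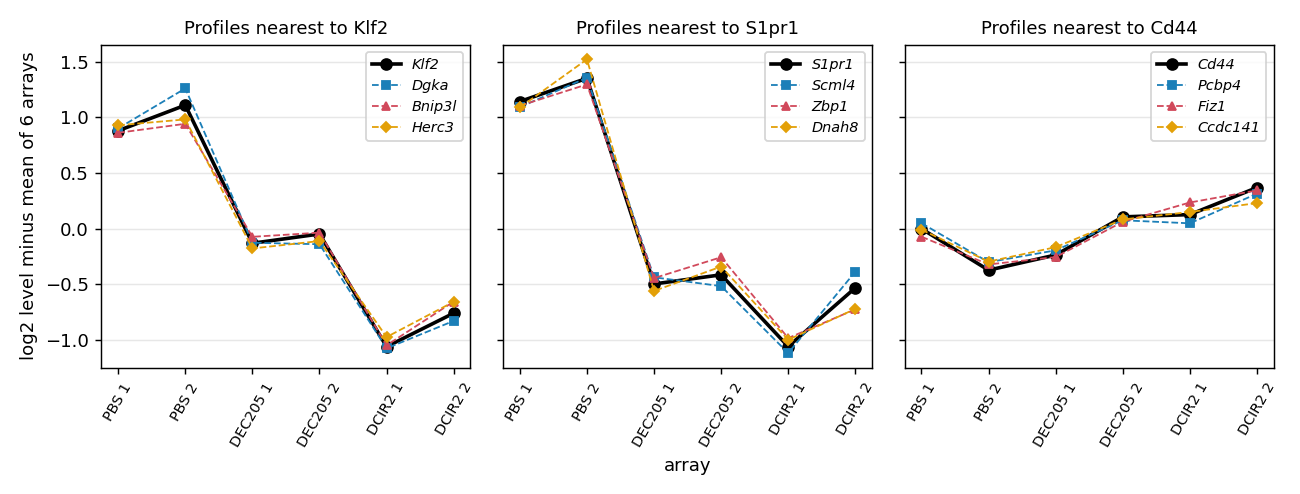
Log2 level minus the gene's mean over the 6 arrays (vertical axis) in each array for Klf2, S1pr1 and Cd44 (black) and the 3 genes with the nearest profile to each (dashed). The profiles of Klf2 and S1pr1 step down from the PBS to the DCIR2 arrays, and those near Cd44 stay within a log2 unit.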

How the data were processed

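The deposited values were log2 levels per probe set, which the authors summarised by RMA (Partek), as the submitters' processing notes list. The array's scan and RMA settings: not given in the sources used here. Labelled cDNA was amplified from 5 ng of RNA, per the labels' protocols. Of 35556 probe sets 21789 named 1 gene, 1621 several and 12146 none here. For each of 19938 genes the probe set naming only that gene with the highest mean over the 6 arrays was kept. Group means were fitted over all 6 arrays with limma 3.58.1 (R 4.3.3, lmFit and eBayes with a trend), and p-values were adjusted by the Benjamini-Hochberg method over all genes, with a threshold of 0.05. Levels were not compared between genes. The p-values rest on the spread between arrays within all 3 groups, moderated towards a trend over all genes. With 2 arrays a group that spread may be in part technical.

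The scripts were tested on simulated data. The members and lists were chosen with earlier results of these data known. From each list up to 4 genes were named, those with the largest difference from PBS among genes that passed against PBS. Tln1, Dnm2, Itga1, Chst15, Alcam, Cd226, Cd47, Cd69, Fut7, S1pr2, S1pr3 and S1pr5 were named after their values were seen. Profiles were sought over genes with a full name, leaving out predicted, olfactory, vomeronasal and Mir genes. Listed entries that were not measured are not reported here. Coordinates and promoters are of GRCm38.p6.

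Alternatives left out each array, added a replicate block, tested every probe set or their mean, changed the scaling (quantile, median centring), dropped dim genes, changed the variance trend, or used the 4 arrays compared.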

Additional observations from a re-analysis of the deposited data

How the results depend on the processing

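Of the 9 genes, 7 passed against PBS with anti-DEC205-BDC in 13 of the 16 alternatives and 5 or 6 in the other 3. With anti-DCIR2-BDC 7 passed in 14 and 8 in the other 2, and 0 passed between the antibodies in any. No value of the 9 genes reversed where it was called. Klf2 and S1pr4 lost their calls after anti-DEC205-BDC, and Itgal gained one after anti-DCIR2-BDC, under the alternatives named beside them; the cause was not tested.

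Counts over all genes moved more. With arrays left out in turn they ranged from 997 to 1367 after anti-DEC205-BDC, from 2090 to 3637 after anti-DCIR2-BDC, and from 0 to 27 between the antibodies. With every probe set tested, 694 genes passed after anti-DEC205-BDC and 0 between the antibodies. Between the antibodies 7 passed once the dimmest 30% of genes were dropped, 9 at 50%, and 0 with no variance trend.

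The labels do not say whether same-numbered arrays belong together, and the main fit did not pair them. Deviations of same-numbered arrays correlated at 0.145, 0.131 and 0.0714. These values cannot decide it, as the correlation that pairing would give is not known. With the replicate block 2069, 3885 and 2 genes passed, and 7, 7 and 0 of the 9 genes. The block added calls among the listed genes after anti-DEC205-BDC: the count of the egress list went from 3 to 5 and that of the homing receptors from 0 to 2, with Cxcr4 at -1.56 (limma adjusted p = 0.00143). Over all genes the median difference against PBS moved from -0.03 and -0.05 to 0.04 and 0.06 with median centring.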
